A study of Homo sapiens with 9 samples.

Results

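The platinum complex Pt-ttpy was compared with its solvent DMSO in A2780, an established human cell line from an ovarian carcinoma, and the comparison covers every gene with an Ensembl identifier in the deposited table. It takes 6 of the 9 libraries of the series, 3 labelled Pt-ttpy and 3 labelled DMSO. Of 24542 rows in the table, 19974 carried an Ensembl identifier, and 13383 of these had enough counts to be tested. Pt-ttpy was given at 5.5 µM for 96 h, a dose the labels place at its IC80, and the controls received 0.5% DMSO for 96 h. The remaining 3 libraries came from cells given 0.6 µM of the drug labelled Cispt, read here as cisplatin, for 96 h. All 9 libraries are labelled wild type, and nothing says that the biological replicates were separate cultures, so p-values reflect the spread among these samples only. The series title describes Pt-ttpy as binding G-quadruplexes in nuclear and mitochondrial genomes, and the design text asks which genes the compound targets.

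G-quadruplexes are folds of guanine-rich DNA or RNA in which stacked squares of guanines are held by a metal ion. Sequences able to fold this way occur in telomeres, in many promoters and on the guanine-rich strand of mitochondrial DNA. Helicases such as DHX36, BLM and PIF1 unwind them. Platinum drugs of the cisplatin type bind guanines and crosslink DNA, and such lesions are known to activate p53, whose targets halt the cell cycle or start cell death.

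Libraries held 36.4, 37.3 and 40.8 M counts in DMSO 1, 2 and 3, and 32.4, 35.1 and 33.4 M in Pt-ttpy 1, 2 and 3. DMSO 2 stood apart in that GC-rich transcripts had relatively more counts (Spearman rho 0.53 across genes, which are not independent replicates), as did those of Cispt 2 (0.42), while rho lay between −0.34 and −0.17 in the other 7 libraries. Pt-ttpy 1 stood apart in its mitochondrial transcripts, described below. Markers of ovarian and other epithelial cells were nearly absent. KRT7, PAX8, MUC16 and SOX17 had no count in any of the 6 libraries, and the summed level of 13 markers was 0.52 to 1.15 CPM with DMSO and 1.51 to 1.83 CPM with Pt-ttpy, with none of 5 tested members called. CPM is the count scaled to the library's size with TMM factors, per M counts. Fibroblast markers were present at a summed 1101 to 1208 CPM with DMSO and 1830 to 1912 CPM with Pt-ttpy, with FAP alone at 0. No reference profile of A2780 was compared, so the near absence of the epithelial markers searched does not test the ovarian carcinoma label. Leukocyte markers summed to at most 5.30 CPM, endothelial markers to at most 0.40 and erythroid markers to at most 0.17 in any of the 6 libraries.

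Pt-ttpy changed 1714 of the 13383 genes tested, 12.8%, by edgeR's quasi-likelihood test at a Benjamini-Hochberg adjusted p under 0.05. Higher were 719 genes (5.37%) and lower 995 (7.43%), and 4163 genes had an unadjusted p under 0.05. Rises were fewer but larger than falls. At least 2-fold changes were found in 241 rises (1.8% of genes tested) and 28 falls (0.209%), and at least 4-fold changes in 44 rises and 5 falls. The median log2 change was 0.81 among called rises and −0.52 among called falls, and −0.001 over all genes tested. Falls of less than 1.5-fold numbered 689. The division depended on the scaling. Of all calls 41.9% were rises with TMM factors, 57.2% with upper-quartile factors (881 rises, 660 falls) and 52.2% with library totals (836 and 767). These scalings moved the median of all genes to 0.07 and 0.06. It also depended on single libraries, with 583 rises and 614 falls without DMSO 2, and 397 and 651 without DMSO 3. Without Pt-ttpy 1, 2 or 3 the calls numbered 164, 110 and 160 rises and 65, 39 and 84 falls. Without Cispt 2, which is in neither group, they numbered 1196 and 1575. Adjusted p-values below are from this test.

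Where the changes lay depended on how many counts a gene had. Among the 2416 genes with a mean of 1 to 10 CPM over the 9 libraries, 8.28% were called higher and 1.57% lower. Among the 2496 genes at 100 CPM or more, which are not corrected for length, 3.49% were higher and 13.2% lower, with a median log2 change of −0.11. Of their 329 falls 1 reached 2-fold, and of their 87 rises 6 did. Without any count in the 6 libraries were 4045 Ensembl genes. The plot of change against level shows this tilt.

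**Figure D1:**
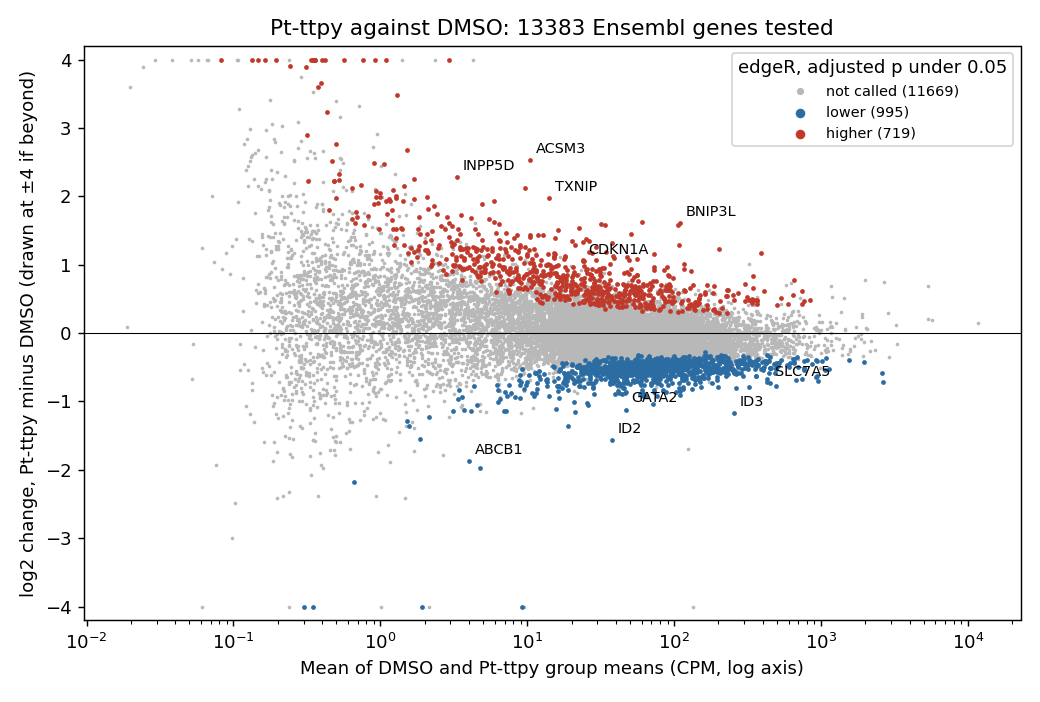
Each point is 1 of 13383 Ensembl genes; the x axis is the mean of the DMSO and Pt-ttpy group means in CPM on a log axis and the y axis the fitted log2 change, with changes larger than 4 in size drawn at the edge. Called rises (719, red) spread upward at low and middle levels, and called falls (995, blue) form a shallow band at middle and high levels.

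The largest rises, ranked among called genes that averaged 5 CPM or more with DMSO or Pt-ttpy and whose groups did not overlap, ran from log2 5.55 (PDE4C) to 1.44 (CTF1) over 25 genes, 9 of which share exon positions with a neighbour. The sources used here do not give the strandedness of the counting, so counts of such genes cannot be told apart from those of the neighbour, which is named in each case. PDE4C, a phosphodiesterase that breaks down cyclic AMP, had counts of 0, 12 and 1 with DMSO and 235, 189 and 154 with Pt-ttpy (adjusted p = 0.00128), and it overlaps an unnamed gene on the same strand. INPP5D encodes a phosphatase that removes the 5-phosphate of a signalling lipid and is best known from blood cells. Its level was 0.76, 1.12 and 1.5 CPM in DMSO 1, 2 and 3 and 4.95, 5.92 and 5.60 CPM in Pt-ttpy 1, 2 and 3 (log2 2.28, SE 0.31, adjusted p = 0.00351). The lowest Pt-ttpy library stood more than 3-fold above the highest DMSO library.

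ACTA2, smooth muscle actin, was at 2.11, 1.78 and 1.97 CPM with DMSO and 4.95, 7.75 and 6.19 with Pt-ttpy (log2 1.69, SE 0.20, adjusted p = 0.00209), and overlaps FAS on the opposite strand. ACTN3 (ENSG00000248746; chromosome 11, 66546395 to 66563329, GRCh38), an alpha-actinin of fast muscle fibres, was at 14.7, 18.6 and 13.9 CPM with DMSO and 46.9, 49.8 and 45.8 with Pt-ttpy (log2 1.59, SE 0.20, adjusted p = 0.00252). ATP2A1, a calcium pump of the muscle reticulum that overlaps RABEP2, was at 4.02, 3.69 and 3.64 against 11.5, 9.05 and 10.8 CPM (log2 1.47, adjusted p = 0.00831). The groups did not overlap in any of the 3 genes, which the ranking rule required. The wider list of actin and smooth-muscle contractile genes did not move as one, with 2 of 19 higher (10.5%), 2 lower (10.5%) and a median of −0.22. Over all genes 5.37% were higher and 7.43% lower. Besides ACTA2, the myosin kinase MYLK rose (0.69, adjusted p = 0.0222), a call lost without DMSO 2 or any 1 of the Pt-ttpy libraries (up to 0.0893), and TPM2 was among the falls (−0.47, 0.0248; up to 0.0998 without a Pt-ttpy library).

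TYRP1 (ENSG00000107165; chromosome 9, 12685439 to 12710290), a melanin-synthesis enzyme, had 12.8, 10.7 and 11.1 CPM with DMSO and 32.3, 35.9 and 32.1 with Pt-ttpy (log2 1.54, SE 0.14, adjusted p = 0.000557). BCAN (ENSG00000132692; chromosome 1, 156641390 to 156659532), a proteoglycan of brain matrix, had 2.25, 2.81 and 2.82 CPM with DMSO and 7.78, 8.63 and 8.68 with Pt-ttpy (log2 1.67, SE 0.18, adjusted p = 0.00109). IGDCC4, a cell-surface protein of the immunoglobulin superfamily, had 2.64, 3.09 and 3.74 against 10.9, 9.64 and 8.24 CPM (log2 1.60, adjusted p = 0.00819). The DMSO libraries sat close together in each, and the ranking rule required that no Pt-ttpy library overlap them. Among secreted proteins, THBS3, a thrombospondin that overlaps MTX1, went from 27.9, 29.2 and 25 to 73.4, 73.0 and 77.1 CPM (log2 1.44, adjusted p = 0.000831). SELENOP, the selenium carrier, overlaps CCDC152 and went from 10.8, 5.73 and 8.71 to 23.8, 26.7 and 21.5 CPM (log2 1.51, adjusted p = 0.00464). CTF1, a cytokine of the interleukin-6 family, went from 5.94, 9.16 and 5.59 to 17.4, 20.9 and 17.9 CPM (log2 1.44, adjusted p = 0.0048). TLR3, the receptor for double-stranded RNA, went from 2.56, 1.55 and 3.32 to 6.40, 6.65 and 7.32 CPM (log2 1.45, adjusted p = 0.0105). DMSO 2 was the lowest DMSO library for SELENOP and TLR3 and the highest for CTF1.

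Of the 25 largest rises 19 kept their call in each of 9 fits that left out 1 library, among them all of those given so far. Lost were PPP1R3C, which targets a phosphatase to glycogen (log2 1.62, adjusted p = 0.0642 without Pt-ttpy 2 and 0.0557 without Pt-ttpy 3), RIMKLA, which makes N-acetylaspartylglutamate (1.58, 0.0648 without Pt-ttpy 2, and lost without DMSO 2 and Cispt 2 together), and CACNG8, a regulator of glutamate receptors (1.45, 0.0747 without Pt-ttpy 1 and 0.0642 without Pt-ttpy 2). DDIT4, an inhibitor of mTORC1, had 44.2, 46.8 and 69.6 CPM with DMSO and 144, 155 and 180 with Pt-ttpy (log2 1.58, adjusted p = 0.0154). Its call was lost without DMSO 2 (0.0565), Pt-ttpy 2 (0.0577) or Pt-ttpy 3 (0.0545). CREBRF (1.52) lost its call without any 1 of the Pt-ttpy libraries (0.0636, 0.0505 and 0.0559), and MYO15B (1.93) without Pt-ttpy 1 (0.0568).

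**Figure D2:**
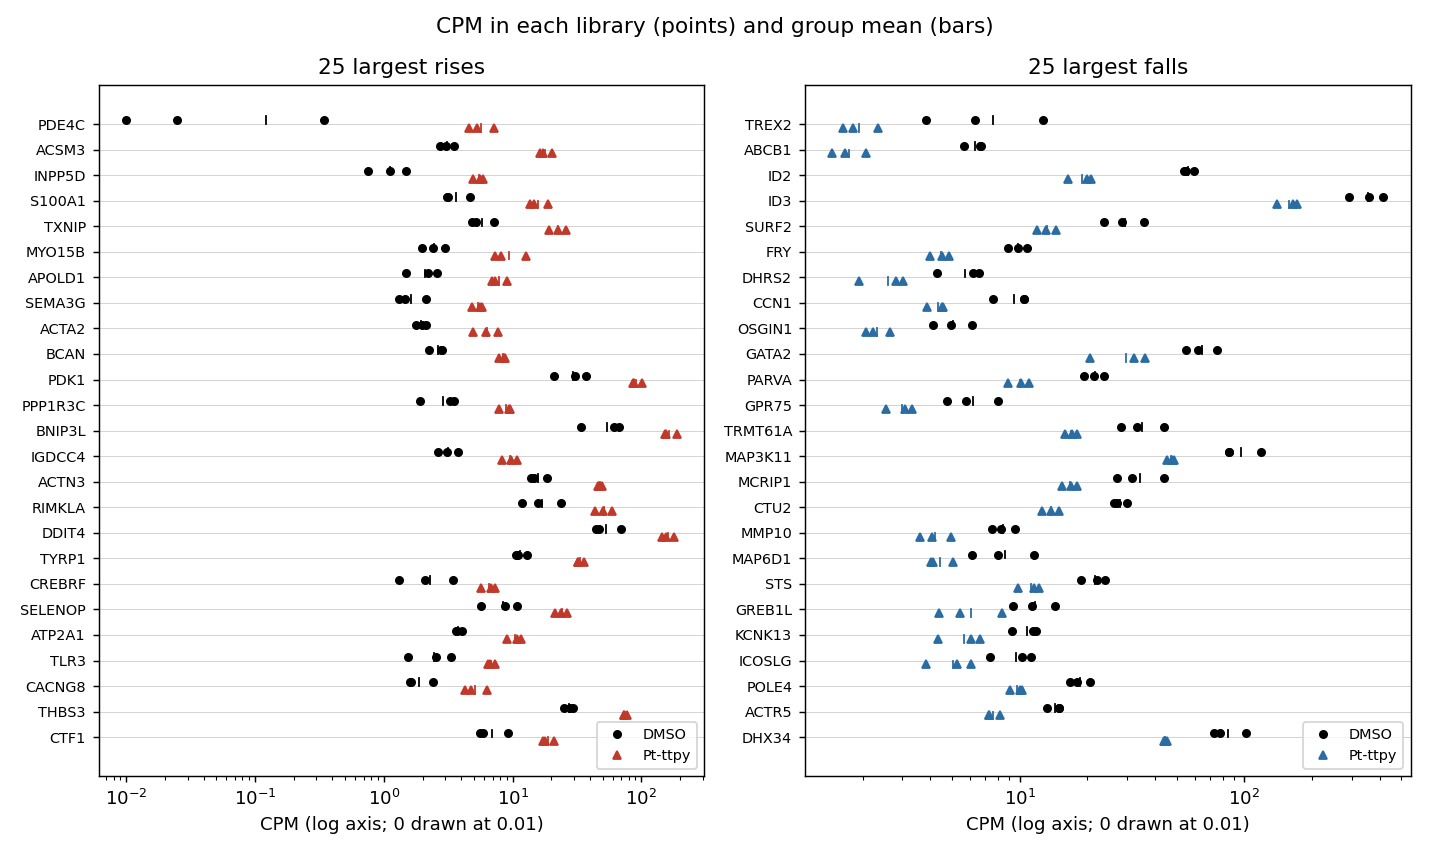
CPM on a log axis for the 25 largest rises (left) and the 25 largest falls (right) in each of 3 DMSO libraries (black circles) and 3 Pt-ttpy libraries (triangles), with short bars at the group means and a CPM of 0 drawn at 0.01. The groups do not overlap in any gene shown, which the ranking rule required, and the gaps are wider among the rises.

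Among genes averaging 100 CPM or more with DMSO or Pt-ttpy, the 12 largest rises spanned log2 1.60 to 0.84. BNIP3L (ENSG00000104765; chromosome 8, 26382898 to 26505636), a receptor that marks mitochondria for removal, had 66.7, 34.3 and 61.3 CPM with DMSO and 154, 188 and 151 with Pt-ttpy (log2 1.60, SE 0.23, adjusted p = 0.0045), and overlaps PNMA2. MAP2K6, a kinase that activates p38, had 75.6, 44.0 and 69.1 against 146, 156 and 157 CPM (log2 1.28, adjusted p = 0.00287). DMSO 2 was the lowest of the 6 libraries for both genes, and the other DMSO libraries stayed below every Pt-ttpy library, as the ranking rule required. PLOD2, a lysyl hydroxylase of collagen (1.01), and ATP2B4, a calcium pump of the cell membrane (0.84), rose but lost their calls without Pt-ttpy 2 (adjusted p = 0.0509 and 0.0575). The endocytic receptor LRP1 (0.97, overlapping STAT6) lost its call without Pt-ttpy 1 or 2 (0.0578 and 0.0657), and the stromal surface protein CD248 (0.92) without any 1 of the Pt-ttpy libraries (up to 0.0671).

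The 25 largest falls were smaller, from −1.97 (TREX2) to −0.92 (DHX34), and 12 of them kept their call in all 9 fits, against 17 without DMSO 2 alone. GATA2 (ENSG00000179348; chromosome 3, 128479427 to 128493185), a transcription factor of blood and neural development, was at 55.3, 75.7 and 62.5 CPM in DMSO 1, 2 and 3 and 20.5, 36.2 and 32.4 in Pt-ttpy 1, 2 and 3 (log2 −1.12, SE 0.19, adjusted p = 0.00838). MAP3K11 (ENSG00000173327; chromosome 11, 65597755 to 65615382), a kinase upstream of JNK, was at 85.4, 119 and 85.5 CPM with DMSO and 47.5, 48.8 and 45.5 with Pt-ttpy (log2 −1.03, SE 0.14, adjusted p = 0.00351). Pt-ttpy libraries agreed closely for MAP3K11, and DMSO 2 was the highest DMSO library for both genes. TRMT61A, a catalytic subunit of the methyltransferase that methylates an adenine of tRNA, went from 28.1, 43.7 and 33.2 to 17.9, 17.1 and 15.9 CPM (log2 −1.05, adjusted p = 0.00835). CTU2, which adds sulfur to the wobble uridine and overlaps PIEZO1, went from 26.3, 29.9 and 27.2 to 15, 12.5 and 13.8 CPM (log2 −1.01, adjusted p = 0.00252). POLE4, a histone-fold subunit of DNA polymerase epsilon, went from 18.0, 20.6 and 16.8 to 10.2, 10.0 and 9.01 CPM (log2 −0.92, adjusted p = 0.00599). ACTR5, a subunit of the INO80 remodeller, went from 15, 15 and 13.3 to 7.32, 7.30 and 8.21 CPM (log2 −0.92, adjusted p = 0.00722).

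Several falls of this group lost their call when 1 library was left out. This was common in fits with 2 Pt-ttpy libraries, where falls over all genes numbered 65, 39 and 84 without Pt-ttpy 1, 2 or 3, against 995. The integrin partner PARVA (−1.11) lost its call without DMSO 2 (adjusted p = 0.0501) or any 1 of the Pt-ttpy libraries (up to 0.0862). The steroid sulfatase STS (−0.95) lost it without DMSO 1, DMSO 3 or any 1 Pt-ttpy library (0.0584, 0.0604 and up to 0.0984), and the immune ligand ICOSLG (−0.93) without DMSO 2, DMSO 3 or any 1 Pt-ttpy library (0.0649, 0.0639 and up to 0.0965). The matrix protease MMP10 (2.00-fold lower) and the helicase DHX34 (−0.92) lost theirs only in the fits with 2 Pt-ttpy libraries (up to 0.0712 and 0.0665).

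Among genes of at least 100 CPM, the 12 largest falls spanned −1.16 (ID3) to −0.80 (NOC2L). ADI1 (ENSG00000182551; chromosome 2, 3497361 to 3519736), an enzyme of methionine salvage, was at 100, 120 and 104 CPM with DMSO and 61.3, 62.1 and 58.0 with Pt-ttpy (log2 −0.84, SE 0.11, adjusted p = 0.00328). FAM98A, a partner of a tRNA-splicing ligase complex, was at 110, 107 and 108 against 63.8, 57.2 and 60 CPM (log2 −0.85, adjusted p = 0.00697). IFITM3, a membrane protein that blocks virus entry, was at 118, 174 and 134 against 73.7, 70.8 and 82.7 CPM (log2 −0.91, adjusted p = 0.00467). Every Pt-ttpy library lay below every DMSO library in these 3 genes, which the ranking rule required. EBNA1BP2, a nucleolar protein of ribosome assembly that overlaps CFAP57, was at 133, 153 and 137 against 78.8, 78.5 and 78.3 CPM (log2 −0.84, adjusted p = 0.00577). GRWD1 (−0.82, overlapping KCNJ14) and MRTO4 (−0.81, overlapping EMC1) lost their calls without any 1 Pt-ttpy library (up to 0.0642 and 0.071), and NOC2L (overlapping SAMD11) without Pt-ttpy 2 (0.0573).

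The ID genes encode helix-loop-helix proteins that hold back differentiation factors, and are textbook targets of BMP signals through SMAD proteins. ID1 (ENSG00000125968; chromosome 20, 31605283 to 31606515) was at 97.7, 112 and 91.5 CPM in the DMSO libraries and 54.4, 57.9 and 47.0 in the Pt-ttpy libraries (log2 −0.92, SE 0.20, adjusted p = 0.0173). ID2 was at 59.6, 55.1 and 54.1 against 19.9, 20.7 and 16.3 CPM, and ID3 at 293, 414 and 358 against 171, 164 and 139 CPM (log2 −1.57 and −1.16). ID4 was at 116, 115 and 109 against 92.3, 88.2 and 79.9 CPM (log2 −0.39, adjusted p = 0.0401). All 4 genes fell and none of their groups overlapped, but the size differed among them. The calls of ID2 and ID3 held in all 9 fits. ID1 lost its call without Pt-ttpy 1, 2 or 3 (0.0722, 0.0667 and 0.0758), and ID4 without any 1 of the 6 libraries (up to 0.157) and under upper-quartile factors, library totals or a fit of Ensembl rows only. In the wider list of BMP and SMAD signalling, 2 of 25 tested genes were higher (8%) and 4, the ID genes, lower (16%), with a median of 0.06. Over all genes 5.37% were higher and 7.43% lower. The receptors BMPR1B (0.89, adjusted p = 0.0107; 0.0502 without Pt-ttpy 1) and ACVR2B (0.68, 0.015; up to 0.0768 without a Pt-ttpy library) rose. The pathway's own feedback inhibitors were not called, with SMAD6 at log2 −0.13 (adjusted p = 0.607), SMAD7 at −0.15 (0.78) and SMAD9 at 0.14 (0.586).

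The promoters of ID1, ID2, ID3 and ID4 each held a stretch that meets the G-quadruplex motif searched, which is 4 runs of at least GGG separated by 1 to 7 bases of any kind, on either strand. The 250 bases before the annotated RefSeq start are shown 5′ to 3′ on the gene's strand (GRCh38.p14) because all 4 of these related genes fell, with the motif in capitals. In ID1 (chr20:31605039-31605288, plus strand) and ID2 (chr2:8681806-8682055, plus strand) it appears as runs of C, the guanines being on the template strand, over 22 bases each, and in ID3 (chr1:23559502-23559751, minus strand) on the coding strand over 28 bases. ID4 (chr6:19837120-19837369, plus strand) holds it in 2 places, both as runs of C and 55 bases together.
ID1: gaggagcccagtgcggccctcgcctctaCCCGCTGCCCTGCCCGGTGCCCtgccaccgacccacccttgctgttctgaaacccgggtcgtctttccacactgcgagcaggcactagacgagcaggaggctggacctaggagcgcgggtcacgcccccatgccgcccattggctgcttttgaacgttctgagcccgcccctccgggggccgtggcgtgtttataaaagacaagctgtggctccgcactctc
ID2: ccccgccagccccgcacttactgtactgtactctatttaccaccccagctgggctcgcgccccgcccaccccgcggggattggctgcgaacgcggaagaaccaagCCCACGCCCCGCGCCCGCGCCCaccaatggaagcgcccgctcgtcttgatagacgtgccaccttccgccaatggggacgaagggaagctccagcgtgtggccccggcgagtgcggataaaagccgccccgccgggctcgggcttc
ID3: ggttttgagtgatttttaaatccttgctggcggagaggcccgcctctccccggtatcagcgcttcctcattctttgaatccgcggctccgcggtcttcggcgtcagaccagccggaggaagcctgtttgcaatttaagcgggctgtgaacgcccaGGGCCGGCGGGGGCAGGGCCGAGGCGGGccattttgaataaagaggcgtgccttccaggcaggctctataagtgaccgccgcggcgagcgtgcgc
ID4: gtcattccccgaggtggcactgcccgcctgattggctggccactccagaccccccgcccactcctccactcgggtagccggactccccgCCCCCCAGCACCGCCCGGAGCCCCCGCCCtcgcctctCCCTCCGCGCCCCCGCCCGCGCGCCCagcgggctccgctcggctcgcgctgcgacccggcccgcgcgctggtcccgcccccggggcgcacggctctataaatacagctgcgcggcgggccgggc
A match describes letters only, and the annotated start may not be the one used in A2780 cells. Among the 10700 tested genes with a RefSeq promoter, 34.6% held such a match.

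TXNIP, which restrains glucose uptake and binds thioredoxin, rose 3.93-fold and its promoter held no G-quadruplex match. It was at 7.20, 4.84 and 5.19 CPM with DMSO and 19.1, 26.1 and 22.4 with Pt-ttpy (log2 1.97, SE 0.25, adjusted p = 0.00285). Its 250 bases before the start (chr1:145996580-145996829, minus strand) are shown with a CCAAT box on each strand in capitals, ATTGG being its complement. TXNIP does not stand for the rises, since the promoters of BCAN, SLC16A3, LRP1, NOTCH3 and BNIP3, which also rose, held a G-quadruplex match. Over all promoters searched, 30.8% of genes called higher and 32.7% of those called lower held one. CCAAT or its complement was found in 36.5% of all promoters tested, those of ID1, ID2 and ID4 among them.
TXNIP: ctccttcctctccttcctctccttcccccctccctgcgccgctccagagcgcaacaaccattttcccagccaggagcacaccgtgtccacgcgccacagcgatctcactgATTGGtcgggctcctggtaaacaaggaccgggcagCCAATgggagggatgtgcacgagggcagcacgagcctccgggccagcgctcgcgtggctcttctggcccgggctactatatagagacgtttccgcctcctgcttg
Of 13 tested genes of the TXNIP, arrestin-domain and MondoA list, 2 rose (15.4%) and 2 fell (15.4%), against 5.37% and 7.43% of all genes. ARRDC3, an arrestin-domain relative of TXNIP, had 49.1, 24.7 and 46.8 CPM with DMSO and 75.2, 68.5 and 72.9 with Pt-ttpy (log2 0.84, adjusted p = 0.0255), a call lost without any 1 Pt-ttpy library (up to 0.0938). ARRDC4, the closest relative, had 3.80, 1.15 and 1.70 against 4.37, 6.15 and 5.84 CPM and was not called (1.30, adjusted p = 0.0719). MLX, a partner of the glucose-sensing factor MondoA that overlaps PSMC3IP, fell (−0.49, 0.0198; up to 0.0962 without a Pt-ttpy library).

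Genes of the DNA damage response moved in part. Of 21 tested p53 targets that act in arrest and feedback, 9 rose (42.9%) and none fell, with a median log2 change of 0.40. Over all genes tested 5.37% rose and 7.43% fell. GADD45A, a stress protein that binds PCNA and p21, was at 7.29, 7.01 and 6.41 CPM with DMSO and 16.1, 13.3 and 14.4 with Pt-ttpy (log2 1.08, SE 0.16, adjusted p = 0.00454). CDKN1A, which encodes p21, was at 15.4, 17.0 and 14.5 against 29.9, 36.3 and 30.8 CPM (log2 1.05, adjusted p = 0.00327). TP53INP1, a cofactor of p53, was at 27.3, 19.2 and 27.8 against 52.4, 56.0 and 50.4 CPM (log2 1.10, adjusted p = 0.00351). These 3 calls held in all 9 fits, with a clear gap between the groups in each. The antiproliferative gene BTG2 (0.63, adjusted p = 0.0101) and the RNA-binding protein gene ZMAT3 (0.71, 0.0101) lost theirs only without Pt-ttpy 2 (0.0639 and 0.0624). CCNG2, an unconventional cyclin, rose (0.91, 0.0233; up to 0.0944 without a Pt-ttpy library).

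Among 16 tested p53 targets of cell death none rose and 2 fell (12.5%, against 7.43% of all genes), with a median of 0.03. Without DMSO 2, 1 was called higher and none lower, with a median of 0.15. FAS, a death receptor, was at 4.39, 2.86 and 4.59 CPM with DMSO and 7.11, 7.98 and 6.01 with Pt-ttpy (log2 0.83, adjusted p = 0.078), and its exons overlap those of ACTA2. BID, which carries death-receptor signals to mitochondria, fell (−0.46, adjusted p = 0.04), a call lost under upper-quartile factors or library totals and without Cispt 1, Cispt 3, DMSO 2, DMSO 3 or any 1 Pt-ttpy library (up to 0.13). In the wider BCL2 family 2 of 16 rose (12.5%) and 3 fell (18.8%), against 5.37% and 7.43% of all genes. BMF, which carries a BH3 death domain, had counts of 11, 26 and 22 with DMSO and 73, 79 and 90 with Pt-ttpy (log2 2.15, adjusted p = 0.0155), and BAK1, a pore former of the outer mitochondrial membrane, had 29.8, 39.0 and 28.6 against 21.8, 18.7 and 21.7 CPM (log2 −0.65, 0.0191). Both calls were lost without any 1 Pt-ttpy library (up to 0.0642 and 0.0972). The survival genes MCL1 (−0.34, adjusted p = 0.0596) and BCL2L1 (−0.37, 0.0602) were not called.

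Repair lists differed in how many of their genes were called. Of 32 tested genes of the Fanconi anemia pathway and homologous recombination none was called (median 0.11), 9 lying higher and 2 lower without overlap, against 19.4% and 23.3% of all genes. FANCD2, the monoubiquitinated centre of the Fanconi pathway, was at 89.4, 86.7 and 94.0 CPM with DMSO and 105, 112 and 120 with Pt-ttpy (log2 0.32, adjusted p = 0.0649), overlapping FANCD2OS. Of 26 genes of nucleotide excision repair 2 were called higher (7.69%) and 1 lower (3.85%), where 5.37% and 7.43% of all genes were. The damage sensor DDB2 led the rises (0.65, adjusted p = 0.0154, up to 0.0768 without a Pt-ttpy library), while XPC, overlapping LSM3, was not called (0.25, 0.222). Of 16 genes of translesion synthesis 3 rose (18.8%) and 1 fell (6.25%), with a median of 0.32, and 7 lay higher and 1 lower without overlap. Without DMSO 2, 1 was called higher and 1 lower. The lesion-bypass polymerase POLI rose from 16.1, 11 and 15.2 to 25.5, 22.2 and 19.7 CPM (log2 0.67, adjusted p = 0.0277), and MAD2L2, the accessory subunit of polymerase zeta, fell from 55.2, 82.0 and 58.5 to 39.6, 39.3 and 42.2 CPM (−0.69, 0.0168). POLI lost its call without DMSO 2 (0.0565), DMSO 3 (0.0521) or any 1 Pt-ttpy library (up to 0.118), and MAD2L2 without any 1 Pt-ttpy library (up to 0.0811). Among 23 checkpoint genes 1 rose and 3 fell. PPM1D, a phosphatase that switches the checkpoint off and is itself a p53 target, was at 70.1, 69.5 and 71.7 against 101, 104 and 92.9 CPM (log2 0.49, adjusted p = 0.0146; 0.071 without Pt-ttpy 1 and 0.0779 without Pt-ttpy 2). HUS1, part of the clamp that loads at damage, was at 19.8, 18.0 and 18.9 against 10.7, 11 and 13.3 CPM (log2 −0.70, 0.0238), a call lost without DMSO 1 (0.0537), DMSO 3 (0.058) or any 1 Pt-ttpy library (up to 0.107).

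The 13 protein genes of mitochondrial DNA were not called. They held 1.75%, 1.81% and 1.89% of the counts in DMSO 1, 2 and 3 and 4.18%, 1.95% and 2.07% in Pt-ttpy 1, 2 and 3. These shares did not overlap between the groups, but after TMM scaling the summed CPM did, with 19334 in DMSO 2 and 19281 in Pt-ttpy 2. The difference was 0.91 points (exact permutation test, two-sided, p = 0.1, the smallest 3 against 3 can give). It rested on Pt-ttpy 1 and was 0.19 points without that library. Relative to the DMSO mean, the median of the 13 genes was 2.39 in Pt-ttpy 1, 1.05 in Pt-ttpy 2 and 1.06 in Pt-ttpy 3. MT-CO1, the catalytic subunit of cytochrome oxidase, was at 3896, 4054 and 4267 CPM with DMSO and 10067, 4489 and 5048 with Pt-ttpy (log2 0.68, adjusted p = 0.397). All 13 had a fitted change above 0, from 0.12 (MT-CO3) to 0.78 (MT-ATP6, which shares positions with MT-ATP8 and MT-CO3). Without Pt-ttpy 1 the change was above 0 in 8 and the median fell from 0.53 to 0.15.

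**Figure D3:**
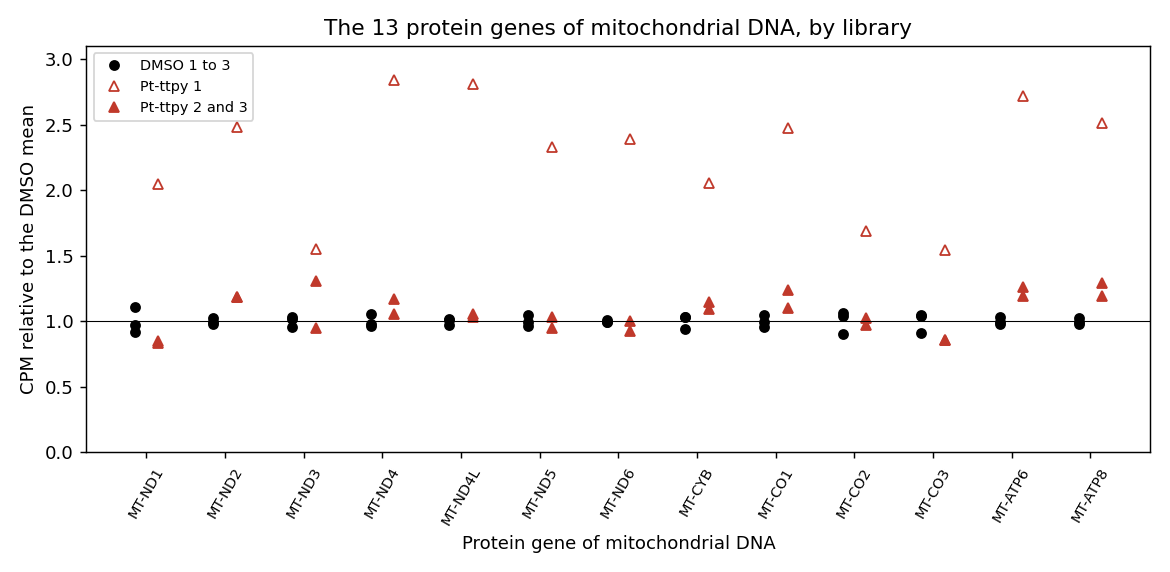
CPM relative to the DMSO mean (y axis, linear, 1 meaning no difference) for the 13 protein genes of mitochondrial DNA, with 1 point per library. Pt-ttpy 1 (open triangles) lies between 1.54 and 2.84 for every gene, and Pt-ttpy 2 and 3 lie between 0.84 and 1.30, around the DMSO libraries.

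Nuclear genes that bring proteins into mitochondria were lower more often than genes at large. Of 29 tested genes of mitochondrial protein import 10 fell and 1 rose, with a median of −0.32. These were 34.5% and 3.45%, against 7.43% and 5.37% of all genes. Without DMSO 2, 7 were called lower, and 1 of the 11 calls held in all 9 fits. Genes at 100 CPM or more had 13.2% lower, and how far level accounts for the share was not tested. TOMM22 (ENSG00000100216; chromosome 22, 38681948 to 38685421), a central receptor of the outer-membrane gate, was at 134, 150 and 135 CPM with DMSO and 85.4, 94.6 and 93.9 with Pt-ttpy (log2 −0.61, SE 0.10, adjusted p = 0.00631) and kept its call in all 9 fits. TOMM40, the channel itself, was at 310, 402 and 312 against 245, 231 and 235 CPM (log2 −0.53, adjusted p = 0.0239), and the chaperone TIMM10 of the space between the membranes at 24.2, 25.2 and 18.7 against 15.3, 14.1 and 14.1 CPM (−0.65, 0.0172). TOMM20, the receptor for presequences, moved the other way, from 573, 412 and 536 to 670, 698 and 677 CPM (log2 0.43, adjusted p = 0.034). TOMM40 lost its call without DMSO 2 (0.052), TOMM20 without DMSO 3 (0.0599), and each of TOMM40, TIMM10 and TOMM20 without any 1 Pt-ttpy library (up to 0.105, 0.0851 and 0.125). Of 44 assembly factors of the respiratory complexes 4 fell (9.09%) and none rose (median −0.19). In mitochondrial fusion and fission 2 of 16 fell (12.5%). MFN2, a fusion protein of the outer membrane, was at 252, 316 and 269 against 181, 187 and 187 CPM (log2 −0.59, adjusted p = 0.011; up to 0.0624 without a Pt-ttpy library), while its relative MFN1 (0.03), the inner-membrane protein OPA1 (0.05) and the fission motor DNM1L (0.06) were not called.

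Genes regulated by oxygen and genes of sugar metabolism changed unevenly. Of 29 tested genes of the HIF list, which holds pathway components and oxygen-regulated targets, 8 rose (27.6%, against 5.37% of all genes) and 3 fell (10.3%, against 7.43%), with a median of 0.39. Higher without overlap were 17, where 19.4% of all genes were. Besides BNIP3L, MXI1, a repressor related to MYC's partners, rose from 11.3, 7.5 and 9.81 to 22.1, 19.4 and 20.6 CPM (log2 1.12, adjusted p = 0.0101; 0.0502 without Pt-ttpy 1). P4HA1, a collagen prolyl hydroxylase, rose from 76.2, 57.8 and 70.7 to 97.8, 121 and 98.7 CPM (log2 0.63, 0.0207; up to 0.102 without a Pt-ttpy library). The transcription factor subunit HIF1A (0.21, adjusted p = 0.387) and the angiogenic factor VEGFA (0.05, 0.779) were not called, and the oxygen sensor EGLN2 was among the falls (−0.51, 0.0209; up to 0.0908 without a Pt-ttpy library).

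In glycolysis and glucose transport 5 of 27 rose (18.5%) and 1 fell (3.70%), against 5.37% and 7.43% of all genes. The median was −0.00, and above 0 with upper-quartile factors or library totals. SLC16A3 (ENSG00000141526; chromosome 17, 82228397 to 82261129), a lactate exporter, was at 41.5, 45.2 and 47.8 CPM with DMSO and 90.0, 110 and 100 with Pt-ttpy (log2 1.16, SE 0.15, adjusted p = 0.00252), overlapping CSNK1D. PDK1, which blocks entry of pyruvate into the citrate cycle, was at 30.8, 20.9 and 37.3 against 85.5, 102 and 87.7 CPM (log2 1.63, adjusted p = 0.00464). ALDOC, an aldolase, was at 68.1, 80.4 and 66.6 against 114, 130 and 131 CPM (log2 0.80, adjusted p = 0.00843). All 3 calls held in the 9 fits. No library of one group reached the other, which the ranking rule required of SLC16A3 and PDK1. PFKFB4 (0.87, adjusted p = 0.0123, overlapping UCN2), which sets the level of a glycolytic activator, and PDK3 (0.74, 0.00899) lost theirs without Pt-ttpy 2 (0.0667 and 0.0573). LDHA, a lactate dehydrogenase subunit, was at 1690, 1686 and 1644 CPM against 1613, 1954 and 1770 and was not called (log2 0.09, adjusted p = 0.733), nor was the hexokinase HK2 (0.29, 0.204). GPI, which interconverts glucose and fructose phosphates, fell (−0.51, 0.02; up to 0.0968 without a Pt-ttpy library).

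Several lists for making, folding and destroying proteins held more falls than the 7.43% of all genes. The list of RNA-guided rRNA modification and its methyltransferases had 8 of 20 lower (40.0%) and a median of −0.35, with all 20 below 0. The chaperonin and prefoldin list had 5 of 14 lower (35.7%, median −0.23), the proteasome 12 of 45 (26.7%, −0.25), translation factors 11 of 43 (25.6%, −0.22), aminoacyl-tRNA synthetases of the cytosol 5 of 23 (21.7%, −0.26) and RNA polymerases 7 of 37 (18.9%, −0.29). None of these lists had a rise except translation factors, with 3 (6.98%, against 5.37% of all genes). Without DMSO 2 the falls numbered 4 for rRNA modification and 3 for RNA polymerases. Among the calls of these 6 lists, 1 held in all 9 fits. Genes at 100 CPM or more, the class where falls are most frequent, had 13.2% lower, and how far level accounts for these shares was not tested. Cytosolic ribosomal proteins did not share the pattern, with 3 of 76 higher (3.95%) and 1 lower (1.32%), and a median of 0.03.

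PFDN2, a subunit of the prefoldin that passes unfolded actin and tubulin to the chaperonin, was at 91.1, 94.3 and 97.2 CPM with DMSO and 63.5, 62.2 and 53.4 with Pt-ttpy (log2 −0.66, adjusted p = 0.00722), overlapping NIT1, and kept its call in all 9 fits. NOP2, an rRNA methyltransferase, was at 135, 171 and 129 against 96.2, 81.3 and 91.1 CPM (log2 −0.69, 0.015), overlapping an unnamed gene. EIF4G1, the scaffold of the cap-binding complex, was at 1047, 1358 and 1105 against 722, 687 and 755 CPM (log2 −0.70, adjusted p = 0.013). DMSO 2 was the highest library for NOP2 and EIF4G1, and the Pt-ttpy libraries lay below all DMSO libraries. PSMB3, a subunit of the proteasome core, was at 113, 158 and 122 against 85.1, 84.3 and 89.0 CPM (−0.60, 0.0161), and POLR2L, a small subunit shared by the 3 nuclear RNA polymerases, at 55.1, 60.1 and 57.8 against 35.3, 39.5 and 34.9 CPM (−0.66, 0.0168; overlapping CD151). EIF4B, which assists the helicase of initiation, rose instead, from 710, 698 and 685 to 941, 1020 and 960 CPM (log2 0.48, 0.0123). The calls of NOP2, EIF4G1, PSMB3, POLR2L and EIF4B were lost without any 1 Pt-ttpy library (up to 0.081, 0.072, 0.0806, 0.0775 and 0.0696). Over all 59 lists 231 genes were called, 87 higher and 144 lower, and 27 of them kept their call in all 9 fits.

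**Figure D4:**
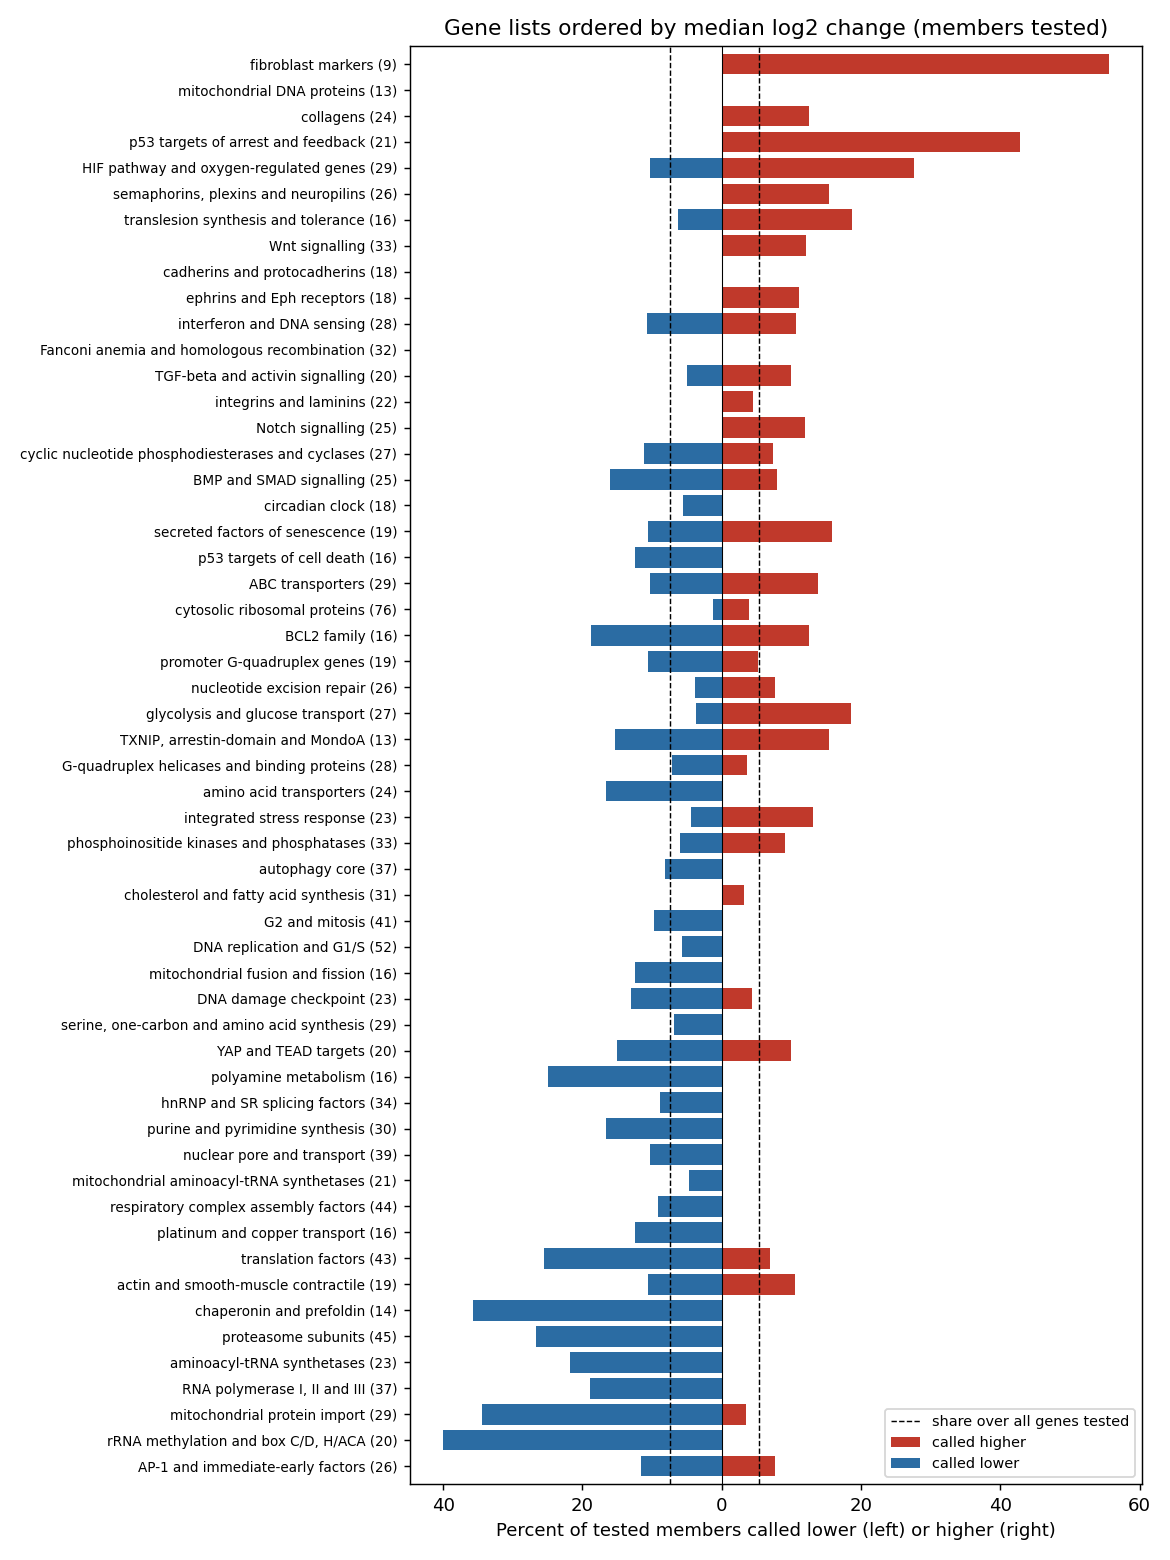
For each gene list with at least 9 tested members, ordered by median log2 change, the bars give the percent of members called higher (red, right) or lower (blue, left); dashed lines mark the shares over all 13383 genes, 5.37% and 7.43%. Fibroblast markers (5 of 9), p53 targets of arrest (9 of 21) and HIF genes (8 of 29) have the longest bars to the right, and rRNA modification (8 of 20), chaperonin (5 of 14) and mitochondrial import (10 of 29) the longest to the left.

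Amino acid and polyamine supply genes fell in part. Of 24 amino acid transporters 4 fell (16.7%, against 7.43% of all genes) and none rose. Their median of −0.03 was above 0 with upper-quartile factors or library totals. SLC7A5, the importer of leucine and other large amino acids, was at 490, 651 and 530 CPM with DMSO and 357, 316 and 333 with Pt-ttpy (log2 −0.73, SE 0.11, adjusted p = 0.00589) and kept its call in all 9 fits. Of 16 genes of polyamine metabolism 4 fell (25%) and none rose (median −0.13). ODC1, the first enzyme of polyamine synthesis, was at 291, 326 and 283 against 198, 208 and 204 CPM (log2 −0.56, adjusted p = 0.00774) and kept its call in all 9 fits. SRM, which makes spermidine, was at 198, 288 and 226 against 146, 152 and 159 CPM (−0.64, 0.0211; lost without DMSO 2, 0.0504, or any 1 Pt-ttpy library, up to 0.0921). In the integrated stress response 3 of 23 rose and 1 fell. Its central factor ATF4 was at 333, 393 and 341 against 317, 308 and 324 CPM and was not called (−0.17, adjusted p = 0.415), nor was DDIT3, which encodes CHOP (−0.35, 0.322, overlapping MARS1 and MBD6). ATF5, a related factor overlapping NUP62 and IL4I1, fell from 50.1, 61.7 and 49.0 to 30.2, 32.4 and 27.1 CPM (log2 −0.84, adjusted p = 0.00589) and kept its call in all 9 fits.

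Transporters of drugs and lipids went both ways. Of 29 tested ABC transporters 4 rose (13.8%) and 3 fell (10.3%), against 5.37% and 7.43% of all genes. ABCB1, the multidrug efflux pump, was at 6.64, 6.70 and 5.64 CPM with DMSO and 2.06, 1.47 and 1.66 with Pt-ttpy (log2 −1.87, SE 0.28, adjusted p = 0.00467). ABCA1 (ENSG00000165029; chromosome 9, 104781002 to 104928237), the cholesterol exporter, was at 25.3, 20.2 and 26.4 against 54.4, 51.7 and 50.8 CPM (log2 1.12, SE 0.13, adjusted p = 0.00128). Both calls held in all 9 fits. ABCC1, another drug pump, was not called, at 111, 130 and 115 against 118, 125 and 121 CPM (0.03, adjusted p = 0.879). Genes that carry platinum or copper were mostly not called. The copper importer SLC31A1, which is also known to admit cisplatin, was at 162, 150 and 169 against 136, 146 and 154 CPM (log2 −0.14, adjusted p = 0.365), and the exporters ATP7A and ATP7B were at 0.33 (0.264, overlapping PGK1) and 0.28 (0.26). The metallothionein gene MT2A was at 21.0, 27.3 and 24.8 against 17.0, 14.5 and 9.42 CPM (−0.84, 0.0229), a call lost if DMSO 2 (0.0636), DMSO 3 (0.0562), Pt-ttpy 2 (0.0841) or Pt-ttpy 3 (0.0767) was left out.

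Lists of the cell surface, matrix and guidance signals held no falls, and their shares of rises stood on both sides of the 5.37% over all genes. Of 24 collagens 3 rose (12.5%), of 18 ephrins and Eph receptors 2 (11.1%), of 22 integrins and laminins 1 (4.55%) and of 18 cadherins and protocadherins none. Of fibroblast markers 5 of 9 tested rose (55.6%, median 0.61). COL3A1, a fibrillar collagen, was at 488, 485 and 472 CPM with DMSO and 816, 805 and 849 with Pt-ttpy (log2 0.77, SE 0.14, adjusted p = 0.0101), LUM, a matrix proteoglycan, at 150, 72.1 and 141 against 265, 295 and 288 CPM (1.22, 0.00964) and PDGFRA, a growth factor receptor overlapping an unnamed gene, at 76.1, 62.6 and 70.6 against 109, 119 and 118 CPM (0.72, 0.00825). These 3 calls held in all 9 fits. More cells expressing these genes and more of their RNA per cell cannot be told apart in bulk libraries. The markers THY1 and POSTN were not called higher, with counts of 3468, 4543 and 3996 against 2988, 3216 and 3070 for THY1 and 1518, 776 and 1568 against 1167, 1396 and 1255 for POSTN.

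Of the semaphorins, plexins and neuropilins 4 of 26 rose (15.4%, median 0.33). PLXNB3, a plexin, had counts of 0, 0 and 4 with DMSO and 38, 43 and 30 with Pt-ttpy (adjusted p = 0.0043; overlapping SRPK3). SEMA3G, a secreted semaphorin, was at 2.11, 1.46 and 1.32 against 5.57, 4.88 and 5.84 CPM (log2 1.73, adjusted p = 0.011), and both calls held in all 9 fits. SEMA3A, a repellent of axons, was at 4.81, 2.55 and 5.64 against 8.74, 11.2 and 9.78 CPM (1.19, 0.0172; up to 0.081 without a Pt-ttpy library). In Notch signalling 3 of 25 rose (12%, median 0.08). MAML3, a coactivator of Notch that overlaps MGST2, was at 31.4, 34.6 and 38.1 against 61.4, 65.9 and 63.0 CPM (log2 0.87, adjusted p = 0.00264) and kept its call in all 9 fits. NOTCH3 was at 78.4, 89.6 and 74.0 against 150, 152 and 159 CPM (0.93, 0.0123; up to 0.0571 without a Pt-ttpy library), while the target gene HES1 was not called (−0.73, 0.0787). Of 33 Wnt genes 4 rose (12.1%, median 0.31), among them the receptor FZD7 at 190, 188 and 176 against 267, 281 and 260 CPM (0.54, 0.00939; 0.0605 without Pt-ttpy 2). AXL, a receptor kinase in the list of YAP and TEAD targets, rose from 26.8, 33.1 and 30.6 to 61.8, 64.8 and 69.7 CPM (log2 1.12, SE 0.19, adjusted p = 0.00895) in all 9 fits. That list as a whole had 2 of 20 higher (10%) and 3 lower (15%), against 5.37% and 7.43% of all genes.

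Immediate-early genes had the lowest median of all lists, −0.42 over 26 tested, and 15 lay lower without overlap, where 23.3% of all genes did. Called were 2 higher (7.69%, against 5.37% of all genes) and 3 lower (11.5%, against 7.43%). EGR1, a zinc-finger factor induced within minutes by growth signals, was at 299, 165 and 110 CPM with DMSO and 106, 40.1 and 30.4 with Pt-ttpy (log2 −1.70, SE 0.83, adjusted p = 0.226). The groups did not overlap, but the libraries of each group lay far apart and the test did not call it. FOS was at 10.9, 9.91 and 8.86 against 6.92, 5.05 and 3.79 CPM (−0.91, adjusted p = 0.13). JUNB, overlapping HOOK2, was called (−0.67, 0.0343) and lost its call without DMSO 1 (0.0637), DMSO 2 (0.101), any 1 Pt-ttpy library (up to 0.13), or DMSO 2 and Cispt 2 together. FOSL1 rose (0.61, 0.0355) and lost its call without any 1 of the 6 libraries or Cispt 1 (up to 0.137) and with limma-voom. Without DMSO 2 no member of the list was called. Cell cycle genes changed little, with none called higher. Lower were 3 of 52 replication and G1/S genes (5.77%, median −0.08) and 4 of 41 G2 and mitosis genes (9.76%, median −0.07), near the 7.43% of all genes. CDC20, an activator of the mitotic ubiquitin ligase, was at 247, 353 and 260 against 187, 207 and 203 CPM (−0.53, adjusted p = 0.0238; up to 0.103 without a Pt-ttpy library).

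Genes of G-quadruplex biology were called about as often as other genes. Of 28 helicases and binding proteins 1 rose and 2 fell, 3.57% and 7.14%. WRN, a RecQ helicase, was at 30.2, 20.1 and 23.8 CPM with DMSO and 35.4, 35.2 and 34.6 with Pt-ttpy (log2 0.50, adjusted p = 0.0441). WRN lost its call without Cispt 1, Cispt 3, DMSO 2, DMSO 3 or any 1 Pt-ttpy library (up to 0.135). DHX36 (0.10, adjusted p = 0.784), BLM (−0.04, 0.927) and PIF1 (−0.13, 0.644) were not called. Of 19 genes with a described promoter G-quadruplex 1 rose (5.26%) and 2 fell (10.5%), against 5.37% and 7.43% of all genes.

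Across promoters, from 250 bases before to 50 after the RefSeq start, the G-quadruplex motif was no more frequent among all called rises or all called falls. It was found in 175 of 568 promoters of genes called higher (30.8%), 275 of 841 called lower (32.7%) and 3703 of all 10700 (34.6%). Among rises of at least 2-fold the share was 45 of 178 (25.3%). The 25 largest rises held it in 2 of 20 promoters searched (10%) and the 25 largest falls in 10 of 21 (47.6%). These are few promoters, and the difference was not tested. Read the other way, 4.73% of genes with the motif were called higher and 7.43% lower, against 5.62% and 8.09% of genes without it, with medians of −0.007 and −0.011. GGGCGG, the GC box, or its complement was found in 60.7% of promoters of genes called higher, 77.3% of those called lower and 70.4% of all. CACGTG, the E-box of MYC and related factors, was found in 8.10%, 13.8% and 10.0% in the same order, TATAAA in 8.63%, 5.71% and 5.50%, TGACGTCA in 1.94%, 4.04% and 3.19%, and CCAAT in 36.6%, 37.6% and 36.5%. The median GC content of the window was 62.8%, 67.0% and 65.3%. GC-rich transcripts had relatively more counts in DMSO 2, as given above (rho 0.53). Without that library the calls numbered 583 rises and 614 falls, and the motif shares were not recomputed for them. How far DMSO 2 accounts for the differences in GC box and GC content was not tested. The called groups also differ in level, as given above. Among genes of 10 to 100 CPM, GGGCGG or its complement was found in 61.9% of promoters of genes called higher, 78.2% of those called lower and 72.9% of those not called, and at 100 CPM or more in 72.9%, 77.1% and 75.5%. The G-quadruplex motif was found in 32.2%, 31.9% and 34.7% at 10 to 100 CPM, and in 38.6%, 33.5% and 36.8% at 100 CPM or more, where 70 promoters of genes called higher were searched. At 1 to 10 CPM it was found in 24.5% of 151 promoters of genes called higher, 36.7% of 30 called lower and 36.0% of those not called.

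**Figure D5:**
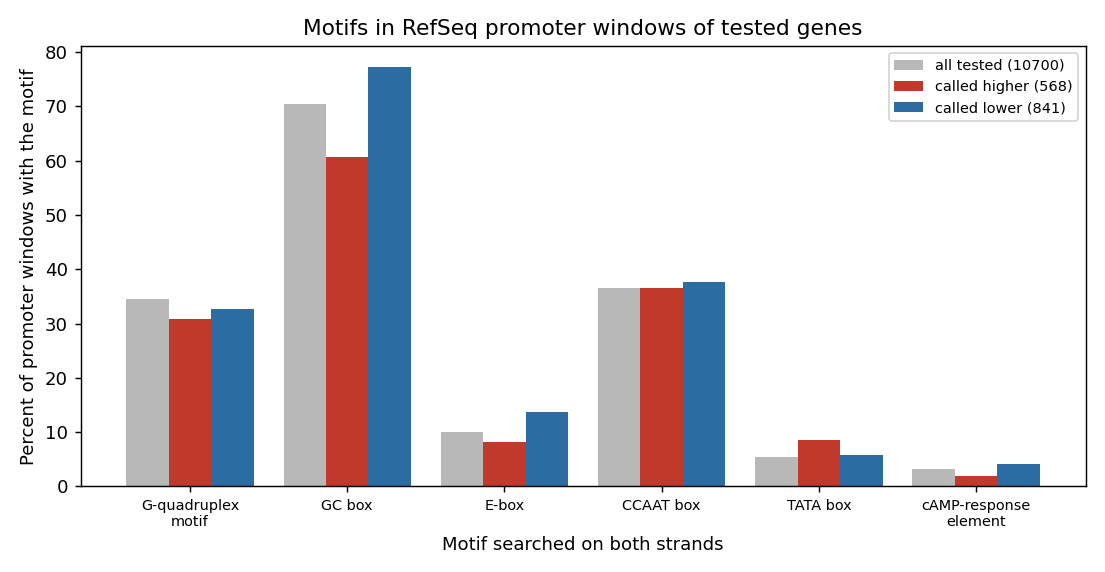
Percent of 300-base RefSeq promoter windows holding each motif on either strand, for all 10700 tested genes (grey), 568 called higher (red) and 841 called lower (blue); the cAMP-response element is TGACGTCA. The G-quadruplex bars are 34.6%, 30.8% and 32.7%, while the GC box runs from 60.7% among rises to 77.3% among falls.

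Against the Cispt libraries, which were fitted together with the others, Pt-ttpy differed in few genes, 9 higher (0.0672% of 13383) and 69 lower (0.516%). Of the 71 genes among the largest changes from DMSO, 5 differed. That number was 3 without Cispt 2, a library that stood apart in GC-rich transcripts, and 16 without DMSO 2 and Cispt 2 together. With 3 libraries a group, few calls do not show that the 2 drugs act alike. INPP5D was at 39.5, 62.8 and 28.7 CPM with Cispt (log2 −2.99 for Pt-ttpy minus Cispt, SE 0.28, adjusted p = 0.000605) and ACTA2 at 24.6, 27.8 and 20.9 CPM (−1.96, SE 0.19, 0.000637). Both were lower with Pt-ttpy than with Cispt, and both calls held in all 9 fits. TYRP1 was at 61.9, 49.0 and 63.6 CPM with Cispt (−0.80, SE 0.13, 0.0241). PDK1 was at 33.4, 25.3 and 48.8 CPM with Cispt, near its DMSO values, and was higher with Pt-ttpy (log2 1.36, SE 0.24, adjusted p = 0.0301), as was RIMKLA at 12.3, 10.9 and 24.6 CPM (1.68, SE 0.31, 0.0419). ALDOC was at 62.3, 61.2 and 83.9 CPM with Cispt and higher with Pt-ttpy (0.86, SE 0.14, 0.0213). Each of these last 4 lost its call without any 1 Pt-ttpy library, without Cispt 1, and without Cispt 2 or, for TYRP1, Cispt 3, and RIMKLA also without DMSO 1 (up to 0.165 for TYRP1, 0.15 for PDK1, 0.196 for RIMKLA and 0.136 for ALDOC). Among p53 targets, Pt-ttpy was below Cispt for BTG2 (−1.36, adjusted p = 0.000298; 89.9, 96.5 and 80.9 CPM with Cispt) and ZMAT3 (−1.08, 0.00277; 122, 97.9 and 101 CPM with Cispt) in all 9 fits. CDKN1A was also lower with Pt-ttpy than with Cispt in all 9 fits (−2.10, 7.57e-05). GADD45A (−0.99, 0.0171) and TP53INP1 (−0.87, 0.0268) were lower too. Both lost that call without Cispt 1 or any 1 Pt-ttpy library (up to 0.129 and 0.176), and TP53INP1 also without Cispt 2. The doses, 5.5 µM and 0.6 µM, differ, and both are given in the labels as IC80.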

How the data were processed

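The authors deposited 1 table of whole-number counts per gene for 9 libraries of A2780 cells. Per the labels' protocols, column-purified RNA went into an mRNA library kit. Per the submitters' processing notes the genome build was GRCh38. The sources used here do not give the aligner, the counting program or its strandedness. Of 24542 rows, 4568 are named newGene and have no position. They stayed in the fit, 2175 were tested, and 151 were called higher and 9 lower, but they are not counted in the report.

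Counts were fitted with edgeR 4.0.16 in R 4.3.3, using filterByExpr (minimum count 10), TMM factors and a robust quasi-likelihood fit of group means to the 9 libraries. Sharing the spread with Cispt leaves 6 residual degrees of freedom. Adjusted p is Benjamini-Hochberg over the 15558 rows tested. The common biological coefficient of variation was 19.1%. On simulated counts for 15278 genes, drawn for this comparison, the fit recovered 23 of 100 planted 1.5-fold and 60 of 100 planted 2-fold changes. It also called 6 of 15078 unchanged genes. The Benjamini-Hochberg cutoff depends on how many genes change, and 1714 Ensembl genes were called in the data, far more than were planted. The recovered shares therefore do not give the sensitivity of this comparison, although changes can be missed. Sums of the 6 libraries compared, between 32.4 and 40.8 M, limit counting error, not the spread between libraries.

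Genes named are the 25 largest rises and falls among called genes with a symbol, at least 5 CPM in a group and no overlap between groups, the 12 largest each way at 100 CPM, up to 4 called members per list by adjusted p, and chosen members of each list. CCNG2, GPI, EGLN2, THY1 and POSTN fall outside this rule and were chosen after their values were seen. The other uncalled fibroblast markers, COL1A1 and COL1A2, were likewise added after their values were seen. A few genes that the rule selects are not reported here. The 59 lists, the members named and the tests were chosen with earlier results of these data known. Of 1647 list names 1642 matched a row. Exon overlaps, found for 5555 genes, come from GENCODE 29, and promoter sequences from RefSeq (GRCh38.p14). No libraries were duplicates. Alternatives were DESeq2 1.42.0, limma-voom (limma 3.58.1), other scalings, filters and thresholds, the 6 libraries alone, the replicate number as a block, and libraries left out. The share of mitochondrial counts was tested with scipy 1.17.1.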

Additional observations from a re-analysis of the deposited data

How the results depend on the processing

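Of the settings tried, those that moved the number of genes called by more than 1.5 times were these. DESeq2 called 1118 genes higher, the fit without DMSO 2 and Cispt 2 together called 2185 higher and 2696 lower, and an adjusted p under 0.01 left 106 and 58. Upper-quartile factors left 660 lower. Leaving out 1 library gave 110 to 1196 genes higher and 39 to 1575 lower. The fewest came without Pt-ttpy 2 and the most without Cispt 2, and the cause was not tested. Replicate numbers did not pair the DMSO and Pt-ttpy libraries (correlation of same-numbered deviations 0.0069, 0.041 and −0.039). With the replicate number as a block 1094 genes were higher and 1242 lower, and 8 of the 71 genes among the largest changes differed from Cispt. That number was 5 in the report, 11 with DESeq2, 16 without DMSO 2 and Cispt 2 together, 2 at the 0.01 threshold and 2 to 8 with 1 library left out. Without DMSO 2 and Cispt 2 together 4 uncalled genes turned direction and were called, namely MFN1 (−0.16, adjusted p = 0.0405), OPA1 (−0.18, 0.0162), BRCA2 (−0.26, 0.0132) and XPO1 (−0.12, 0.0438). The mitochondrial difference kept its sign throughout and was 0.19 to 1.31 points with 1 library left out. Loops of up to 12 bases raised the share of promoters with a G-quadruplex motif to 45.8% for rises and 50.1% for falls, against 51.3% of all. Fits with 2 libraries of a group rest on fewer samples.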
